A study of Homo sapiens with 6 samples.

Results

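DNA replication and G1/S genes were described in SUM159 cells with silenced spinophilin. Of 56 listed genes, 38 had a transcript cluster, the array's unit for a gene, that carried their symbol and no other in the annotation used here. In all, 14884 genes were named in this way. Transcript clusters annotated with more than 1 symbol were left unnamed, and whether they cover the genes without a named row was not examined. Each gene was represented by its brightest transcript cluster over the 6 arrays, and only CCND2, CLSPN and GINS4 had more than 1. The genes without a named row were ORC1, ORC6, TK1, RFC2, RFC3, RFC4, RFC5, POLA1, POLA2, POLE2, POLD1, PRIM1, CHAF1A, CHAF1B, RPA1, RPA2, LIG1 and CDKN1B. All 5 polymerase and primase genes of the list are among them and were not analysed here.

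SUM159 cells are a human breast cancer line and served in the study as its basal-like model. The study describes their p53 gene as mutated. Both groups were stably transduced with lentiviral particles and selected with puromycin. The silenced cells expressed a short hairpin RNA (shRNA) against spinophilin, a scaffold protein and regulatory subunit of protein phosphatase 1, and the control cells expressed a scrambled shRNA. A single shRNA sequence was used. Total RNA was hybridized to Affymetrix Human Gene 2.0 ST arrays, 3 per group, labelled 1, 2 and 2d in each, and no source used here states what the letter d stands for. The study calls the samples independent biological replicates without saying whether each came from its own transduction, so the p-values cover the spread among cultures that may share 1 transduction.

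A cell that commits to division passes from G1 into S phase, where it copies its DNA. D-type cyclins with CDK4 or CDK6, and E-type cyclins with CDK2, phosphorylate the retinoblastoma protein RB1, which then releases E2F transcription factors. E2F factors switch on the genes for the licensing factors, the replicative helicase, the sliding clamp and the enzymes that supply nucleotides, so mRNAs of this group are commonly used as a readout of cells entering S phase. In an array of whole cell RNA, more cells in S phase and more of an mRNA per cell cannot be told apart. The comparison asked whether these mRNAs differed between spinophilin-silenced and control cells.

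A sequence that many of the genes share is shown first. The rule that chose the genes did not use it, but E2F factors are known to switch on genes of this kind. A high share of matches was therefore likely from the choice of genes. E2F factors are known to bind sites close to TTTCCCGC, TTTGGCGC or TTTCGCGC, and these 3 forms were searched on both strands in RefSeq promoter windows of GRCh38.p14, which hold 250 bases before and 50 bases from the start of each gene. Of the 38 genes, 29 had a window, and 17 of these (58.6%) held at least 1 match, against 3.3% of all 27305 genes with a window and 2.74% of all 35116 windows. The stretches below show the match in licensing, helicase, clamp, nucleotide supply and E2F genes described later, with the matched letters in capitals and each read along the strand of its gene.

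CDC6: ggccattcggaTTTGGCGCgagcgcggctg
MCM2: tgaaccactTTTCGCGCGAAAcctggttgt
MCM6: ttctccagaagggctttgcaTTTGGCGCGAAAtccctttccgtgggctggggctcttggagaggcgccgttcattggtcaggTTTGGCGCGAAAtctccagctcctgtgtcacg
MCM7: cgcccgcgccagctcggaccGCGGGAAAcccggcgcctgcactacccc
GINS2: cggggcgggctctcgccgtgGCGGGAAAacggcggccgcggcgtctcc
PCNA: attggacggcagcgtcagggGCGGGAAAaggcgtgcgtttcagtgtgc
TYMS: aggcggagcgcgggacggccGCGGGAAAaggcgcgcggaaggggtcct
E2F1: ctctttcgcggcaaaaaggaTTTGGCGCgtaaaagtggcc

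In GRCh38.p14 these stretches lie at chr17:40287875-40287904 (CDC6, plus strand), chr3:127598404-127598433 (MCM2, plus strand), chr2:135876502-135876615 (MCM6, minus strand) and chr7:100101557-100101604 (MCM7, minus strand). The others lie at chr16:85688958-85689005 (GINS2, minus strand), chr20:5126654-5126701 (PCNA, minus strand), chr18:657594-657641 (TYMS, plus strand) and chr20:33686386-33686425 (E2F1, minus strand). MCM6 carried 4 overlapping matches, which form the same 12 letters at 2 places, the first of them 152 bases before the start. The match began 20 bases before the start in E2F1, 31 in GINS2, 39 in TYMS and 59 in PCNA. In CDC6 and MCM2 it lay just inside the transcript, 7 and 2 bases past its first base. In MCM2 the forms on the 2 strands overlap. Of the 24 matches in windows of the measured genes, 14 began within 100 bases before the start. A match is a description of letters and not of binding. The other measured genes with a match were CDT1, CLSPN, E2F2, E2F3, GINS1, GINS3, MCM3, MSH6 and UHRF1. Over all listed genes with a window, measured or not, the share was 47.8% (22 of 46). Other replication and G1/S genes measured on the array held a match in 33.3% of 42 windowed genes, and mitosis and G2/M genes in 7.5% of 40.

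Before the differences, the arrays themselves are described. The median log2 value of an array was 5.19 to 5.23, and any pair of arrays correlated with at least 0.988 across all 53617 transcript clusters. Of 12 mesenchymal marker genes expected in SUM159, 7 were measured, with mean log2 levels of 6.93 to 12.6 and VIM (vimentin) at the upper end. All 16 luminal markers had a row, with mean log2 levels of 3.74 to 8.43 around a median of 5.94. KRT18, a keratin of simple epithelia, and XBP1 lay at 8.43 and 8.01. KRT7, another such keratin, was the only luminal marker at an unadjusted p under 0.05 (a difference of 0.28, adjusted p = 0.561 from limma). ESR1 (estrogen receptor) lay at 4.34 ± 0.20 in control and 4.23 ± 0.19 in silenced cells and PGR (progesterone receptor) at 3.82 ± 0.046 and 3.69 ± 0.062 (SD, n = 3 each), near the lower quartile of the arrays of 3.85 to 3.90. Of 6 immune and endothelial markers, 3 were measured. The mean log2 level of CD68 was 7.3, above the median level of named genes of 5.87, and those of VWF and PECAM1 were 5.6 and 5.3, below it. An unadjusted p under 0.05 in limma was reached by 2 of them (CD68 at -0.30 and PECAM1 at 0.46, silenced minus control on the log2 scale) and an adjusted one by 0. The level of the spinophilin mRNA was not analysed here.

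None of the 38 replication and G1/S genes differed between spinophilin-silenced and control cells at an adjusted p under 0.05 in limma, where 0.205% of all 53617 transcript clusters did (0.17% higher and 0.0354% lower). The lowest adjusted p among them was 0.665. At an unadjusted p under 0.05 in limma, 1 of the 38 genes passed (2.63%), which was lower in silenced cells, against 7.39% of all transcript clusters (3.86% higher and 3.53% lower) and 6.72% of all named genes. By the criteria of the study's methods, an unadjusted p under 0.05 together with a 1.5-fold difference, 0 of the 38 genes passed, against 1.33% of all transcript clusters. Without moderated variances, 0 of the 38 passed an unadjusted p under 0.05, against 8.09% of named genes. The same unmoderated test with the replicate label as a block passed 2 (5.26%, MCM4 and TYMS, both higher), against 7.63% of named genes. In either version 0 of the 38 passed an adjusted p. The median log2 fold change of silenced against control cells was -0.02 over the 38 genes, with 18 above and 20 below 0, and -0.01 over all named genes. Differences ran from -0.31 for CCND1 to 0.26 for E2F8, and 34 of the 38 were smaller than 0.20 on the log2 scale in either direction.

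**Figure D1:**
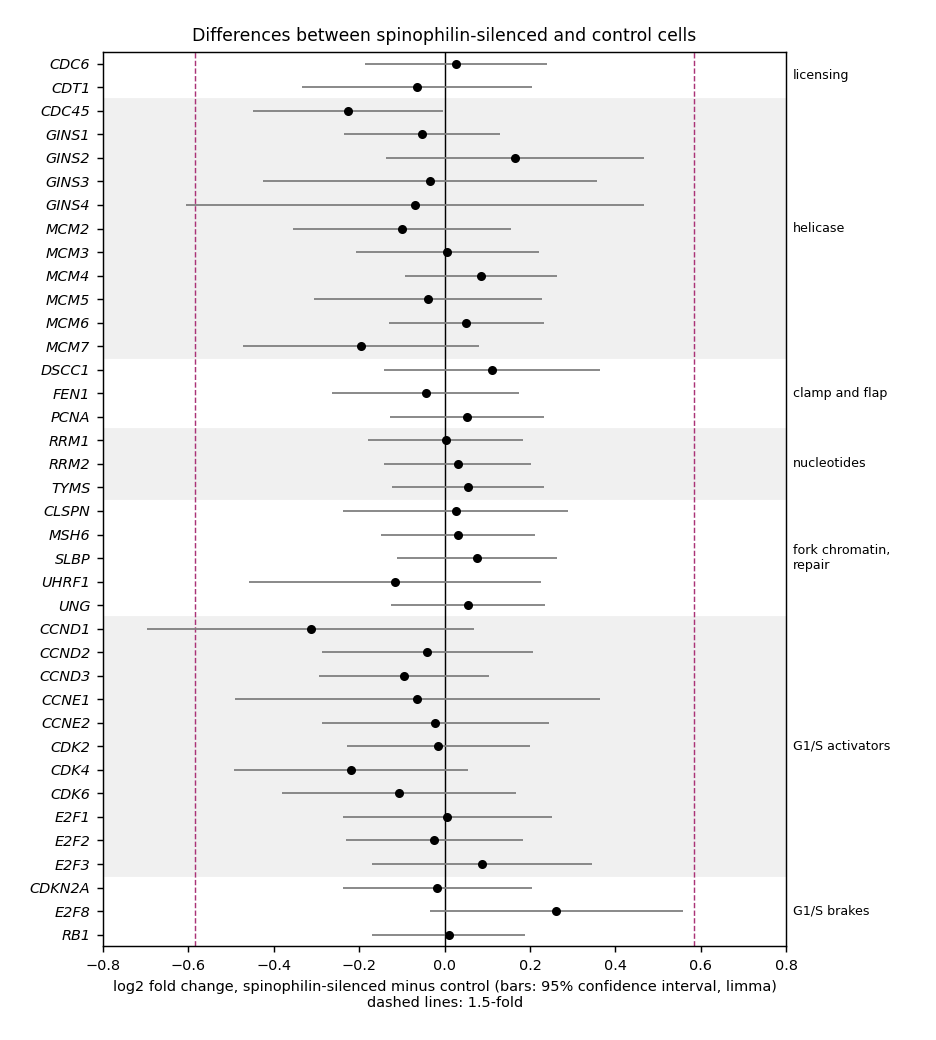
Log2 fold change of each of the 38 measured genes (silenced minus control, 3 arrays each), with 95% confidence intervals from limma and dashed lines at 1.5-fold, ordered by role. The interval of CDC45 alone excludes 0, and those of CCND1 and GINS4 alone reach past 1.5-fold.

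The precision of these values can be read from their 95% confidence intervals, whose half-width had a median of 0.23 on the log2 scale. For 36 of the 38 genes the interval of the limma fit lay within 1.5-fold in both directions, and for all 38 it lay within 2-fold. The exceptions at 1.5-fold were CCND1 (-0.70 to 0.07) and GINS4 (-0.61 to 0.47). Differences well below this half-width were not detectable with 3 arrays a group, even at an unadjusted p under 0.05. The adjusted threshold needs larger differences, so the lack of genes past it does not exclude differences of about this half-width.

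Origin licensing, the loading of the helicase onto DNA in G1, was represented by CDC6 and CDT1, which load the MCM complex. The log2 fold change of CDC6 was 0.03 (95% confidence interval -0.19 to 0.24) and that of CDT1 was -0.06 (-0.33 to 0.20). Neither passed, and the groups overlapped for both genes.

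The replicative helicase is formed by the MCM2 to MCM7 ring together with CDC45 and the 4 GINS subunits, and all 11 of its genes were measured. Of the 11, 4 lay above 0 and 7 below, and log2 fold changes ran from -0.23 to 0.17 around a median of -0.04. CDC45 is the one gene of the 38 with an unadjusted p under 0.05. On control arrays 1, 2 and 2d it measured 9.51, 9.60 and 9.42 (log2 expression, transcript cluster 16927052, chromosome 22), and on silenced arrays 1, 2 and 2d it measured 9.39, 9.18 and 9.28. All 3 silenced arrays lay below all 3 control arrays, with the closest pair 9.39 and 9.42. The difference in CDC45 of -0.23 (standard error 0.094, unadjusted p = 0.0465, adjusted p = 0.665 from limma) did not pass the adjusted threshold. It kept its direction without any 1 array, at -0.17 to -0.28, with an unadjusted p above 0.05 without control array 1 or 2 or silenced array 2 or 2d (0.0881 to 0.146). Of the 3 promoter windows of CDC45, 0 held a match to the E2F forms.

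The MCM ring genes divided evenly, with 3 of 6 above 0 and a range of -0.20 to 0.09. MCM2, a ring subunit whose promoter stretch is shown above, measured 7.03, 7.30 and 7.09 in control and 7.16, 6.92 and 7.04 in silenced cells (arrays 1, 2 and 2d in this and all later lists). The groups overlapped, and the log2 fold change was -0.10 (standard error 0.11, adjusted p = 0.908 from limma). MCM7 measured 8.97, 9.12 and 8.93 in control and 9.03, 8.70 and 8.71 in silenced cells. Silenced array 1 lay between the control arrays and the other 2 silenced arrays lay below them, for a difference of -0.20 on the log2 scale (standard error 0.12, adjusted p = 0.809 from limma). Without silenced array 1 it was -0.30 for MCM7 (unadjusted p = 0.0229, adjusted p = 0.525 from limma), and without control array 2 it was -0.02 for MCM2. MCM4 lay higher on every silenced array than on any control array by a small margin, 8.81 to 8.87 against 8.70 to 8.80, with a difference of 0.09 on the log2 scale (standard error 0.075, adjusted p = 0.883 from limma). MCM3, MCM5 and MCM6 had log2 fold changes of 0.01, -0.04 and 0.05.

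Of the GINS subunits, which tie CDC45 to the ring, GINS2 had the largest difference. It measured 8.46, 8.48 and 8.10 in control and 8.64, 8.51 and 8.40 in silenced cells, a difference of 0.17 on the log2 scale (standard error 0.13, adjusted p = 0.865 from limma). Control array 2d stood below the other 5 arrays, and without it the log2 fold change was 0.04. GINS1, GINS3 and GINS4 had log2 fold changes of -0.05, -0.04 and -0.07. The spread of GINS4 in silenced cells (SD 0.46, n = 3) was wider than in control cells (SD 0.18, n = 3), with 6.58 on silenced array 2d and 7.49 on silenced array 1. The dimmer transcript cluster of GINS4 gave -0.10.

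**Figure D2:**
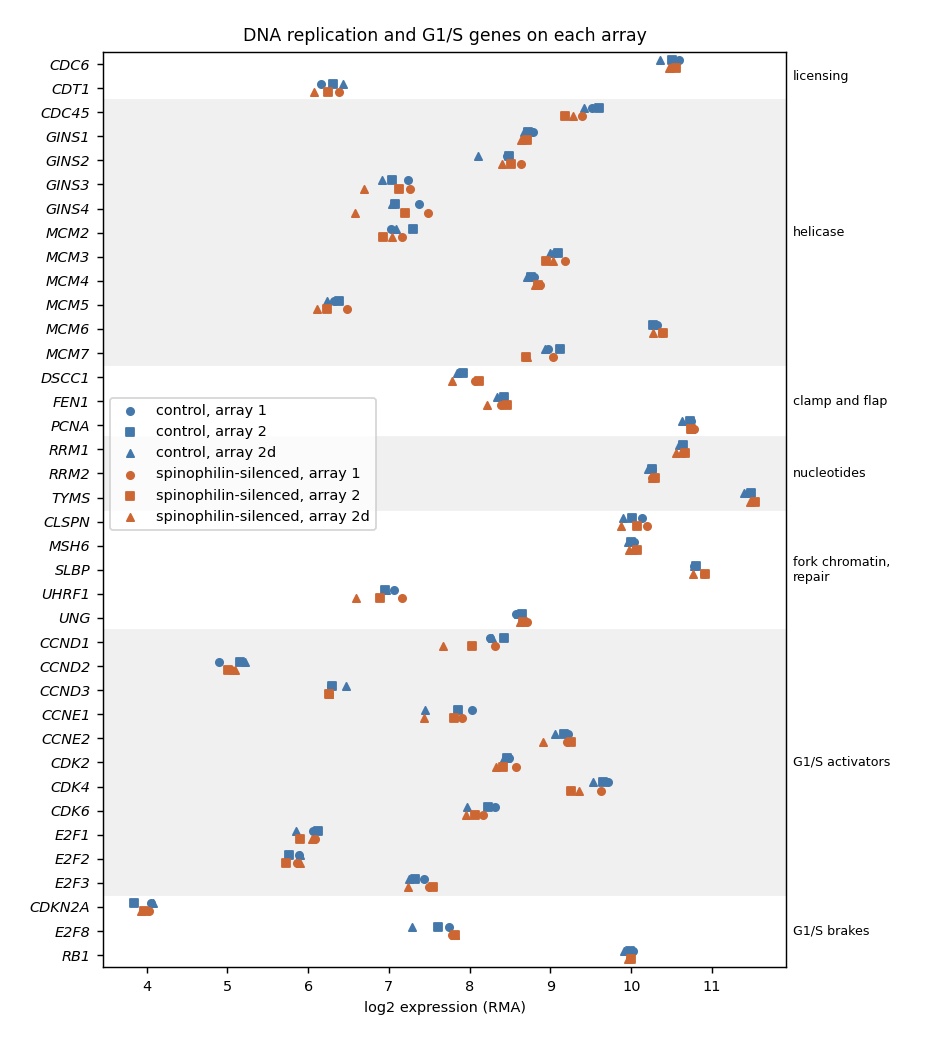
Log2 expression of the 38 measured genes on each array, control cells in blue and silenced cells in orange, with circles for array 1, squares for array 2 and triangles for array 2d. The 2 groups overlap for all genes but CDC45, CCND3, MCM4 and E2F8, and triangles often mark the lowest value of a group.

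At the fork, PCNA encodes the sliding clamp that holds polymerases on DNA, DSCC1 a subunit of an alternative clamp loader, and FEN1 the nuclease that trims the flaps of Okazaki fragments. These 3 of 10 listed genes of the clamp, clamp loader and lagging strand had log2 fold changes of 0.05, 0.11 and -0.04, and 0 passed. PCNA was measured closely, at 10.70 ± 0.062 in control and 10.75 ± 0.019 in silenced cells (SD, n = 3 each), with a 95% confidence interval of -0.13 to 0.23 for the log2 fold change.

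For nucleotide supply, RRM1 and RRM2, the subunits of ribonucleotide reductase, and TYMS, thymidylate synthase, were measured, 3 of 4 listed genes. TYMS measured 11.46, 11.49 and 11.39 in control and 11.50, 11.54 and 11.47 in silenced cells. The groups overlapped on array values between 11.47 and 11.49, and the log2 fold change was 0.05 (standard error 0.076, adjusted p = 0.934 from limma). RRM1 and RRM2 had log2 fold changes of 0.00 and 0.03, with 95% confidence intervals of -0.18 to 0.18 and -0.14 to 0.20. These 3 genes had the narrowest range of differences of all role groups with more than 2 measured genes, from 0.00 to 0.05.

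Among genes of chromatin, repair and the checkpoint at the fork, 5 of 7 were measured and 4 of these lay above 0. SLBP, the protein that binds the stem-loop of histone mRNAs, measured 10.78, 10.80 and 10.78 in control and 10.90, 10.92 and 10.77 in silenced cells. Silenced arrays 1 and 2 lay above the controls and silenced array 2d below them, for a difference of 0.08 on the log2 scale (standard error 0.080, adjusted p = 0.901 from limma). CLSPN, the checkpoint mediator claspin, had a log2 fold change of 0.03, the mismatch repair gene MSH6 had 0.03 and the uracil-DNA glycosylase gene UNG had 0.06. UHRF1, which directs maintenance DNA methylation to replicated DNA, had -0.12 with a 95% confidence interval of -0.46 to 0.23. None of the 5 passed.

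All 11 listed activators of the G1/S transition were measured, and 9 of them lay below 0, with a median log2 fold change of -0.04. Among all named genes, 46.3% lay above 0. CCND1, which encodes cyclin D1, the partner of CDK4 and CDK6, measured 8.25, 8.42 and 8.28 in control and 8.31, 8.03 and 7.67 in silenced cells. Silenced array 1 lay within the control range and silenced arrays 2 and 2d lay below it. The difference in CCND1 of -0.31 (standard error 0.16, 95% confidence interval -0.70 to 0.07, adjusted p = 0.768 from limma) was the largest of the 38, and the silenced arrays had an SD of 0.32 against 0.093 in control cells. Without silenced array 2d it was -0.15, and without silenced array 1 it was -0.47 (unadjusted p = 0.0133, adjusted p = 0.471 from limma). CDK4 measured 9.71, 9.66 and 9.53 in control and 9.62, 9.26 and 9.36 in silenced cells, again with silenced array 1 within the control range. Its log2 fold change was -0.22 (standard error 0.12, adjusted p = 0.775 from limma), and that of CDK6 was -0.11 (95% confidence interval -0.38 to 0.17). CDK4 moved to -0.14 without silenced array 2 and to -0.32 without silenced array 1 (unadjusted p = 0.0187, adjusted p = 0.505 from limma).

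Of the other D-type cyclins, CCND3 and 1 of the 2 transcript clusters of CCND2 lay close to 0. CCND3 measured 6.25 to 6.26 on the silenced arrays and 6.29 to 6.47 on the control arrays, so the groups did not overlap, with a difference of -0.09 on the log2 scale (standard error 0.084, adjusted p = 0.885 from limma). CCND2 measured 4.89, 5.16 and 5.21 in control and 5.04, 5.01 and 5.09 in silenced cells. The brighter transcript cluster of CCND2 gave -0.04 and the dimmer one -0.21 (adjusted p = 0.971 and 0.808 from limma). Their mean levels over the 6 arrays were nearly equal, 5.068 and 5.055.

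CCNE1, which encodes cyclin E1, the partner of CDK2, measured 8.03, 7.86 and 7.45 in control and 7.90, 7.80 and 7.44 in silenced cells. Array 2d was the lowest of the 3 in both groups, and the log2 fold change was -0.06 (standard error 0.18, adjusted p = 0.972 from limma). CCNE2 and CDK2 had log2 fold changes of -0.02 and -0.02. The activator E2F genes lay on both sides of 0, at 0.01 for E2F1, -0.02 for E2F2 and 0.09 for E2F3. E2F1 measured 6.06, 6.12 and 5.85 in control and 6.09, 5.90 and 6.05 in silenced cells, with overlapping groups (standard error 0.10, adjusted p = 0.996 from limma).

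Of the 4 brakes on the transition, 3 were measured. RB1, the retinoblastoma protein gene, measured 10.02, 9.98 and 9.91 in control and 9.99, 9.99 and 9.96 in silenced cells, a log2 fold change of 0.01 (95% confidence interval -0.17 to 0.19, adjusted p = 0.992 from limma). CDKN2A, which encodes the CDK4 and CDK6 inhibitor p16, measured 4.06, 3.84 and 4.08 in control and 4.04, 3.97 and 3.93 in silenced cells, close to the lower quartile of the arrays, and had a difference of -0.02 on the log2 scale (standard error 0.094, adjusted p = 0.987 from limma). The values come without a detection call, so a level this low may be background. The atypical repressor E2F8, which acts on E2F target genes without RB1, measured 7.74, 7.61 and 7.28 in control and 7.78, 7.82 and 7.82 in silenced cells. All silenced arrays of E2F8 lay above all control arrays, by 0.04 at the closest pair. The log2 fold change of 0.26 (standard error 0.13, 95% confidence interval -0.03 to 0.56, adjusted p = 0.738 from limma) was the highest of the 38 and became 0.13 without control array 2d.

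Array by array, 4 of the 38 genes had groups that did not overlap, MCM4 and E2F8 above and CCND3 and CDC45 below. This is 10.5%, against 12.7% of all transcript clusters (6.43% higher and 6.27% lower) and 14.2% of all named genes. For 37 of the 38 genes the difference between the group means was smaller than the range over the 3 arrays of at least 1 group, and for 26 it was smaller than the range of both. These counts were not taken over all named genes, so they do not set the 38 apart from other genes.

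The 38 genes were often lowest on the array labelled 2d, in control and in silenced cells alike. On control array 2d, 28 of them had their lowest value of the group, on silenced array 2d 29 did, and 22 did in both. Set against the mean of its 6 arrays, the median gene of the 38 lay 0.04, 0.01 and -0.05 away on control arrays 1, 2 and 2d and 0.07, 0.02 and -0.06 on silenced arrays 1, 2 and 2d. The number of genes above their own mean was 29, 24 and 10 on the control arrays and 34, 22 and 6 on the silenced arrays. Over all named genes the same medians stayed between -0.02 and 0.01. Of the named genes at or above the median level of named genes, a range that holds 35 of the 38, 44.8% lay above their own mean on control array 2d and 40.6% on silenced array 2d, so most of these other genes lay below their mean there too. Of the 38 genes, 26.3% lay above their own mean on control array 2d and 15.8% on silenced array 2d. For the other replication and G1/S genes these shares were 36.2% and 29.8%, and for the mitosis and G2/M genes 25% and 33.3%. The low values on array 2d were thus not particular to the 38 genes. The cause was not tested.

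**Figure D3:**
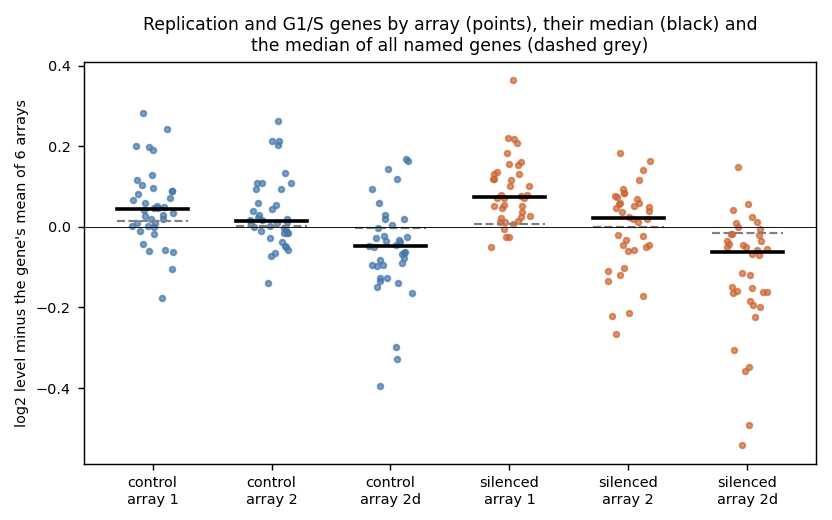
Log2 level of each of the 38 genes minus its mean over the 6 arrays, by array (points), with the median of the 38 genes (black) and of all named genes (dashed grey). The medians of the 38 genes lie highest on array 1 and lowest on array 2d in both groups, between 0.07 and -0.06.

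Between arrays of the same label, the median difference of silenced against control over the 38 genes was 0.04 for label 1, 0.02 for label 2 and -0.03 for label 2d, with 26, 21 and 12 genes above 0. Over all named genes 48.3%, 49.0% and 46.9% lay above 0 in the same order. Without silenced array 2d, 27 of the 38 genes had a log2 fold change above 0, the median was 0.04, and 12 genes (31.6%) lay higher on both remaining silenced arrays than on any control array, against 12.3% of all named genes. Without silenced array 1, 14 lay above 0, the median was -0.05, and 7 genes (18.4%) lay lower on both remaining silenced arrays than on any control array, against 15.5% of named genes. The sign of the median thus depended on which silenced array was left out, and in each of these fits 0 of the 38 genes passed an adjusted p under 0.05.

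The genes with an E2F match were set beside the others. For the 17 genes with a match, log2 fold changes ran from -0.20 to 0.17 around a median of 0.01, with 10 above 0. For the 12 genes with a window and no match they ran from -0.23 to 0.08 around -0.03, with 5 above 0. The 9 genes without a window had a median of -0.02. The ranges overlapped almost entirely, and the difference between the medians was not tested.

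Of 84 other replication and G1/S genes, listed from textbook knowledge, 47 were measured. None of them passed an adjusted p under 0.05 in limma (lowest adjusted p = 0.511), and the median log2 fold change was 0.01. At an unadjusted p under 0.05 in limma, 3 of the 47 passed (6.38%), 1 higher and 2 lower, against 6.72% of all named genes. E2F7, the atypical repressor that pairs with E2F8, measured 9.80, 9.81 and 9.77 in control and 9.65, 9.40 and 9.27 in silenced cells. All silenced arrays lay below all control arrays, and the log2 fold change of -0.35 (standard error 0.11, 95% confidence interval -0.61 to -0.09, unadjusted p = 0.0149, adjusted p = 0.511 from limma) was larger than that of any of the 38 genes. E2F7 and E2F8 thus lay on opposite sides of 0. Groups did not overlap for 10 of the 47 genes (21.3%), 6 higher and 4 lower. This stands against the 14.2% of all 14884 named genes given above, 975 higher and 1142 lower. RECQL4, a helicase of replication initiation, had a log2 fold change of -0.24 and RRM2B, the p53-inducible ribonucleotide reductase subunit, had 0.19 (unadjusted p = 0.0498 and 0.0483, adjusted p = 0.675 and 0.671 from limma). DUT, which keeps uracil out of DNA by removing dUTP, had 0.20 (95% confidence interval -0.09 to 0.48) and 0.097 without control array 2d.

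Of 61 mitosis and G2/M genes, 48 were measured, with a median log2 fold change of 0.02 and 30 above 0. None passed an adjusted p under 0.05 in limma, and 0 passed an unadjusted p under 0.05. The unmoderated test gave 4 of the 48 an unadjusted p under 0.05, where 8.09% of named genes had one, and 0 an adjusted one. The centrosomal kinase gene NEK2 had the largest difference, 0.24 (95% confidence interval -0.04 to 0.52), followed by CDC25B at -0.19, KIF2C at 0.17 and PLK1 at -0.14. Each depended on single arrays, with NEK2 at 0.12 without control array 2d, CDC25B at -0.12 without silenced array 2, KIF2C at 0.049 without silenced array 1 and PLK1 at -0.045 without silenced array 2d. Groups did not overlap for 8 of the 48 genes (16.7%), 8 higher and 0 lower. Of all 14884 named genes 14.2% did not overlap, 975 higher and 1142 lower. Of all transcript clusters 6.43% lay higher and 6.27% lower without overlap. The difference between the medians of the lists was not tested.

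**Figure D4:**
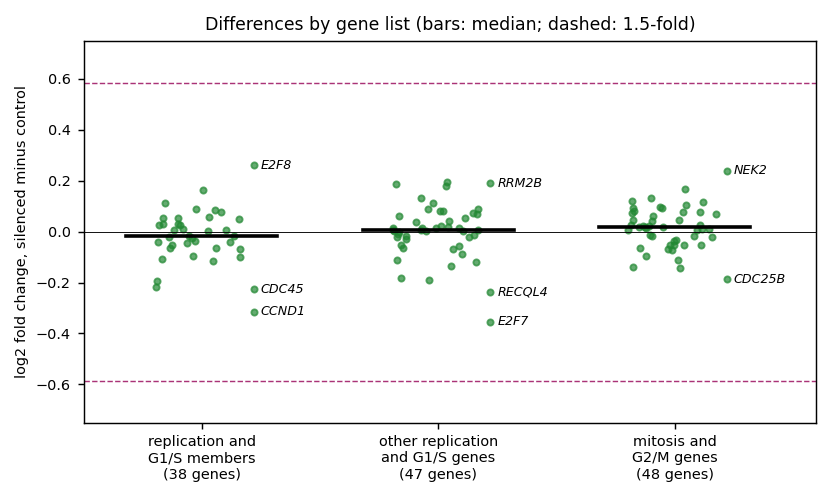
Log2 fold change (silenced minus control) of the 38 replication and G1/S genes, of 47 other genes of the same pathway and of 48 mitosis and G2/M genes, with a black bar at each median and dashed lines at 1.5-fold. The medians lie at -0.02, 0.01 and 0.02, and every gene lies inside the 1.5-fold lines.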

How the data were processed

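Total RNA was amplified linearly, labelled with biotin and hybridized by the authors. Their RMA normalization in Partek 6.6 comprised background correction, quantile normalization, a median polish and a log transform. The deposited values were taken as log2 expression from their range, as no source used here gives the base. Quantile normalization removes differences in total RNA, so differences are relative to the other transcripts of an array.

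The 53617 transcript clusters were used without a filter and named by the platform annotation. Silenced and control arrays were fitted in limma 3.58.1 (R 4.3.3; lmFit, eBayes) with no covariate, and p-values were adjusted over all transcript clusters (Benjamini-Hochberg). The methods name a two-way ANOVA without its second factor, so that test could not be repeated as such. Unmoderated fits of the group, with and without the replicate label, were run as alternatives. An exact permutation test of 3 against 3 arrays cannot give a p under 0.1.

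The genes and lists were chosen with earlier results of these data known. Values on every array are given for genes with an unadjusted p under 0.05, the 6 largest differences, the 2 highest and 2 lowest levels, and E2F1, CCND1, CDKN2A, RB1, CCNE1 and MCM2. MCM4, CCND3 and GINS4 were added after their values were seen. Levels of different genes depend on their probes, and apart from this choice of genes and the brightness classes they were not compared with each other. Values were recomputed under 22 alternatives: blocking on the replicate label, averaging arrays 2 and 2d or treating them as correlated, dropping dim or unnamed transcript clusters, other normalizations (centring, a repeat of quantile normalization, cyclic loess), other variance models (trends, array weights, none), another transcript cluster per gene, and each array left out.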

Additional observations from a re-analysis of the deposited data

How the results depend on the processing

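The number of arrays limits every value, and no alternative brought any of the 38 genes past an adjusted p under 0.05 or past an unadjusted p under 0.05 with 1.5-fold. Their median log2 fold change stayed between -0.02 and 0.01, and between -0.05 and 0.04 when 1 array was left out. The replicate labels were not taken as pairs, since over all transcript clusters the deviations of same-labelled arrays from their group means correlated with 0.012, 1.57e-05 and 0.093, although many of the 38 genes were lowest on array 2d in both groups. With the replicate label as a block, 40 transcript clusters passed in place of 110. In that fit 0 of the 38 genes and 1 of the 47 other pathway genes had an unadjusted p under 0.05, against 6.3% of named genes. With arrays 2 and 2d averaged these counts were 12, 0 and 0, against 4.61% of named genes at an unadjusted p. Groups then did not overlap for 12 of the 38 genes (31.6%), against 35.6% of all named genes under the same setting. As a random block, arrays 2 and 2d gave 223 transcript clusters, 3 of the 38 (7.89%, against 9.49% of named genes) and 1 mitosis gene. Centring gave 0 of the 38 at an unadjusted p (6.39% of named genes) and 2 without overlap (5.26%, against 13.4% of named genes). Variance trends, plain or robust, gave 1 mitosis gene each (7.1% and 7.01% of named genes at an unadjusted p). The unmoderated test passed 0 transcript clusters, with 0 of the 38 and 4 mitosis genes at an unadjusted p, and with the replicate label as a block 0, 2 and 3. Without and with the block, 8.09% and 7.63% of named genes had an unadjusted p under 0.05. Leaving out 1 array gave 15 to 48 transcript clusters and 4 to 14 of the 38 genes without overlap. At an unadjusted p it gave 0 to 4 of the 38 genes, 1 to 3 other pathway genes and 0 to 4 mitosis genes, against 4.85% to 7.57% of named genes. The 4 of the 38 were CCND1, CDC45, CDK4 and MCM7 without silenced array 1 (10.5%, against 7.57% of named genes). There were 0 of the 38 without control array 2 (4.85% of named genes) or silenced array 2 (5.35%). The 14 were without silenced array 2d (36.8%, against 24.9% of named genes) and the 4 without silenced array 2 (10.5%, against 22.6%). The first E2F form alone matched in 37.9% of the 29 measured genes with a window, against 1.98% of all genes with a window. A shorter core, GCGGGAA, matched in 41.4% of the 29, against 7.82% of all genes. Of mitosis and G2/M genes, 2.5% held the first form and 12.5% the shorter core. None of the 22 named genes passed an adjusted p under 0.05 in the main fit or in any alternative, so no such call could be lost. An unadjusted p under 0.05 was kept in 13 of 22 alternatives for CDC45, 20 for E2F7, 11 for RECQL4 and 12 for RRM2B. Of 482 values of these genes, 467 kept their direction, and the others lay near 0. RB1 was -0.0011 with arrays 2 and 2d averaged and -0.0040 after repeated quantile normalization, CCND2 was 0.0080 with the averaged arrays, and array weights gave E2F1 -0.030 and CDKN2A 0.020. When 1 array was left out, E2F1 ran from -0.074 to 0.063, CDKN2A from -0.091 to 0.026, RB1 from -0.022 to 0.035, CCND2 from -0.14 to 0.022 and CCNE1 from -0.23 to 0.073. The causes were not tested.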
